A study of Homo sapiens with 20 samples.

Results

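The 10 genes described here encode heat shock and small heat shock proteins: HSPA1A, HSPA1B, HSPA8, HSPH1, HSP90AA1, DNAJB1, HSPB1, HSPB2, HSPB8 and CRYAB. They were taken by gene name from the table of normalized counts, where each name stands on 1 row, and they are 10 of 44294 genes with a value in at least 1 library. RNA was sequenced from 20 tumors grown in immunodeficient NOD/SCID mice from the rhabdomyosarcoma cell lines RD and SJRH30. RD is a fusion-negative (embryonal) line and SJRH30 carries the PAX3-FOXO1 fusion of alveolar rhabdomyosarcoma. The 4 groups of 5 tumors were RD cells with a TLE3 knockout, RD cells with a non-targeting control, SJRH30 cells with a TLE3 knockout, and SJRH30 cells with a non-targeting control. The study asked which mRNAs change on loss of TLE3, a Groucho-family corepressor. All tumors were cut out when controls had reached the size limit and were frozen in liquid nitrogen, and no tumor was treated with heat or a drug per the labels. The labels name no guide, edited site, clone, cage or mouse, so p-values measure only the spread between these libraries.

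Heat shock proteins are chaperones that bind unfolded or misfolding proteins. HSP70 proteins fold clients in cycles of ATP hydrolysis that J-domain proteins of the HSP40 family start and nucleotide exchange factors such as HSP110 end. HSP90 completes the folding of kinases, receptors and other signalling proteins, and small heat shock proteins hold unfolding proteins without ATP. When unfolded protein builds up, heat shock factor 1 (HSF1) binds heat shock elements, inverted repeats of the letters GAA, in the promoters of many of these genes. In skeletal muscle the small heat shock proteins CRYAB, HSPB2 and HSPB8 are abundant and guard the filaments of the sarcomere.

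The promoters of the 6 members called higher in SJRH30 than in RD knockout tumors are shown first, because these genes are textbook targets of HSF1. Where a gene has several windows, the one with the most matches is shown. Each run is the RefSeq window on GRCh38.p14 from 250 bases before to 50 bases after the annotated start, read along the gene's own strand, with heat shock element matches in capitals. The windows lie at chr6:31815293-31815592 (plus strand, HSPA1A), chr6:31827488-31827787 (plus, HSPA1B), chr11:123062087-123062386 (minus, HSPA8), chr13:31162339-31162638 (minus, HSPH1), chr14:102086995-102087294 (minus, HSP90AA1) and chr19:14518348-14518647 (minus, DNAJB1).
HSPA1A: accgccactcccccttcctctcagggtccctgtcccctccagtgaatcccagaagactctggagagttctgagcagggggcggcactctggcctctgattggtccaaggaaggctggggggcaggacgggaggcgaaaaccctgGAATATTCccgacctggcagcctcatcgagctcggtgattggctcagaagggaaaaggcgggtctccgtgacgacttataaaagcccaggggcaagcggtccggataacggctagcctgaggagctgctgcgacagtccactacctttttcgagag
HSPA1B: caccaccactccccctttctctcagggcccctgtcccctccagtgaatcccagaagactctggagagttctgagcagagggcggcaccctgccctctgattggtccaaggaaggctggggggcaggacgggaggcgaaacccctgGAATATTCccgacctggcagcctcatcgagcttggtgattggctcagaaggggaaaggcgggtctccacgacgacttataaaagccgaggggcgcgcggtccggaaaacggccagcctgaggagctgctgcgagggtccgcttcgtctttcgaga
HSPA8: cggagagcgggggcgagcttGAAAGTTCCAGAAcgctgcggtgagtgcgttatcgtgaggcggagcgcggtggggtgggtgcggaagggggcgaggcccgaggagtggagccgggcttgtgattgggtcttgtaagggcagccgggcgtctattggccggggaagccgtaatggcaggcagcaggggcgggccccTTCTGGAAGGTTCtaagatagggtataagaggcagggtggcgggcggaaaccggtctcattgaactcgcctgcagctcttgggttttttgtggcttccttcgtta
HSPH1: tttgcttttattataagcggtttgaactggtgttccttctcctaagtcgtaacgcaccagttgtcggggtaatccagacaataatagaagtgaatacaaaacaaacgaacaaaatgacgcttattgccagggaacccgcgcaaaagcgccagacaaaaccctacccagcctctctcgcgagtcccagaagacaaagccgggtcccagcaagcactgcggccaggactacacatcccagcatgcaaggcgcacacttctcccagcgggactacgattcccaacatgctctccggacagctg
HSP90AA1: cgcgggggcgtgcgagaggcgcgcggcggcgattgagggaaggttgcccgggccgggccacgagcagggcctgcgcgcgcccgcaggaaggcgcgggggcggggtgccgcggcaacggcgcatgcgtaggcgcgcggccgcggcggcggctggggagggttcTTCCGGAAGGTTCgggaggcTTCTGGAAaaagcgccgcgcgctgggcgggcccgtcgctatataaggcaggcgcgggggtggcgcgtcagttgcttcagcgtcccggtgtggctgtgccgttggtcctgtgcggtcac
DNAJB1: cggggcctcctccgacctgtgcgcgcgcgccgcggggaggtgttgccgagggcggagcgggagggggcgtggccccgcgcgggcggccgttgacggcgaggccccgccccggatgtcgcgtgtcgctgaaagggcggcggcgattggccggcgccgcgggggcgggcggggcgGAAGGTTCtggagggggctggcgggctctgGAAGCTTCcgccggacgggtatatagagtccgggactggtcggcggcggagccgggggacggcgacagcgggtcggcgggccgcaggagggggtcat
The 2-unit match is GAANNTTC or TTCNNGAA, where N is any base; each is its own reverse complement, so both strands are covered, and overlapping matches were counted.

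The HSPA1A and HSPA1B windows were identical at 277 of 301 aligned positions (92%), and each held 1 such match, GAATATTC, starting 106 bases before the start in HSPA1A and 105 bases before it in HSPA1B. HSPA8 held 4 overlapping matches in a pair of clusters, which begin 230 and 55 bases before the start. HSP90AA1 held 3 matches, at 88, 83 and 68 bases before the start, and DNAJB1 held 2 in the window shown, at 77 and 47 bases before it. A 2-unit match was present in 4737 of 35116 RefSeq windows of the same length (13.5%) and in 8 of 11 windows of the members, which cover 7 of the 8 members with a window. The 3-unit forms GAANNTTCNNGAA and TTCNNGAANNTTC were present in 0.49% of all windows and in 2 of the 11, those of HSPA8 and HSP90AA1. A match describes the letters in a window and is not a measured binding site. HSPB1 and HSPB8 windows also held matches, and HSPH1 is the member with a window and no match, which says only that these letters are not in that window.

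Values are the authors' normalized counts, scaled between libraries and rounded, and per-tumor values follow the order of replicates 1 to 5. In 18 libraries the values summed to 26.05 M to 60.69 M. RD knockout 5 and SJRH30 control 3 stood apart: their values are whole multiples of 4.935 and 10.9 units, which corresponds to 9.646 M and 2.139 M reads, and mitochondrially encoded genes took 32.42% and 20.4% of their totals, against 2.337% to 16.91% elsewhere. Results are therefore given over all libraries and over the 18 deep ones. TLE3 itself read 424 to 1547 in RD knockout tumors and 1270 to 2622 in RD control tumors, and 582 to 967 in SJRH30 knockout tumors and 185 to 638 in SJRH30 control tumors. TLE3 passed the test in neither line (adjusted p of 0.605 and 0.557, all libraries), and with no edited site given its RNA level does not check the knockout, so the group names are those of the labels. Of 8 rhabdomyosarcoma markers, 7 were above 0 in every library, MYF5 being the exception, but their levels set SJRH30 control 3 apart. Their sum was 9184 there, against 62005 to 173001 in the other SJRH30 control tumors and 54540 to 85063 in SJRH30 knockout tumors. The receptor gene FGFR4 and the muscle regulator MYOD1 read 403 and 861 in SJRH30 control 3, below every other tumor of either line, while PAX7 at 196 and PAX3 at 2604 lay on the SJRH30 side of all RD tumors. Its median r with the other libraries of its group was 0.465, against 0.804 to 0.962 for the other 19 libraries.

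**Figure D1:**
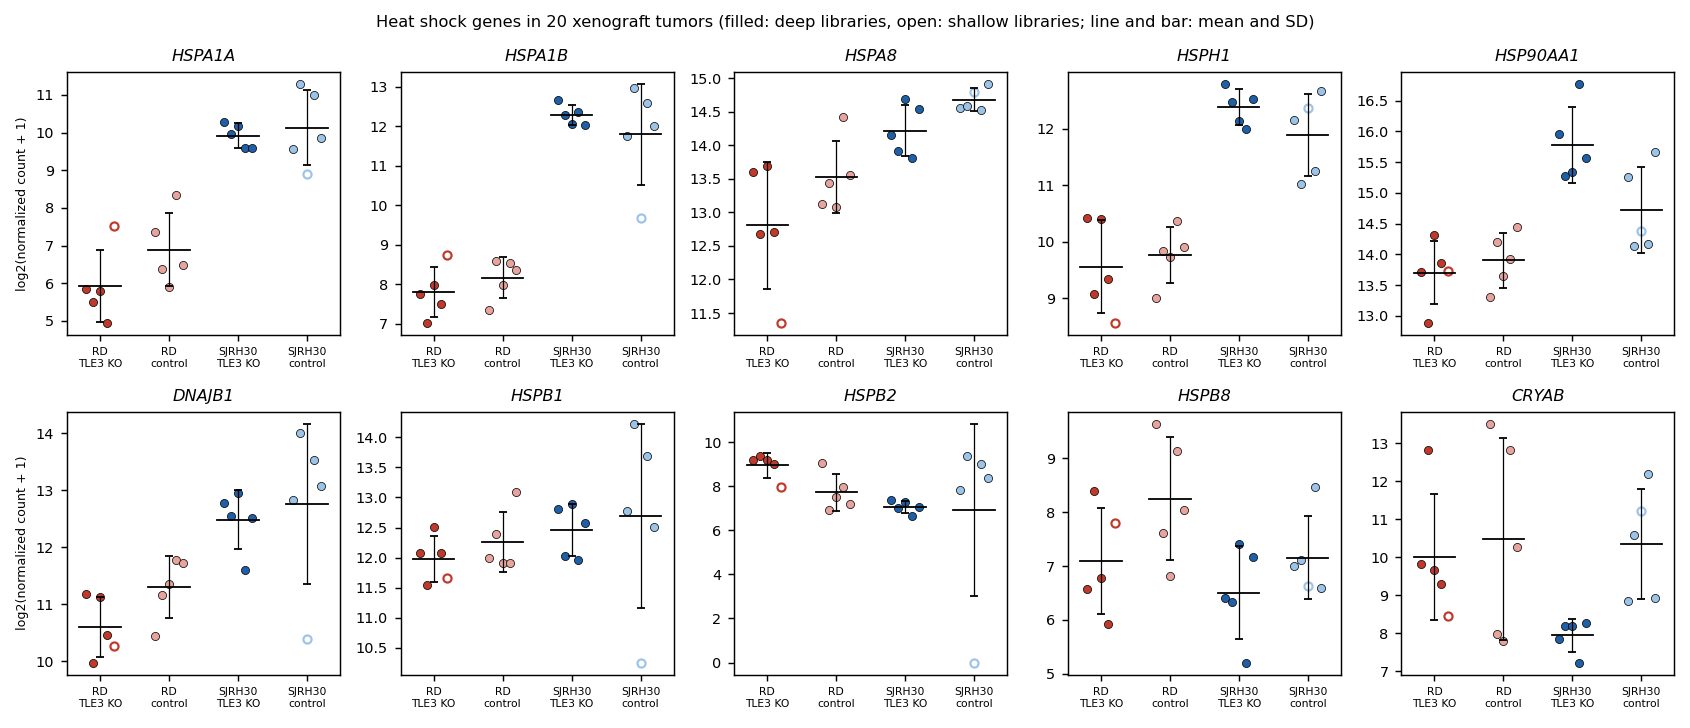
Normalized counts of the 10 genes in 20 xenograft tumors on a log2(value + 1) axis, 1 panel per gene and 1 point per tumor, with the mean and SD of each group as a line and bar and the 2 shallow libraries as open points. HSPA1A, HSPA1B and HSPH1 sit higher in every SJRH30 tumor than in any RD tumor, and CRYAB spreads most widely among RD tumors.

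The clearest pattern among these genes was a difference between the lines, in knockout and in control tumors alike. The stress-inducible HSP70 genes HSPA1A and HSPA1B, the HSP110 gene HSPH1, the HSP40 gene DNAJB1 and the constitutive HSP70 gene HSPA8 were higher in SJRH30 tumors. HSP90AA1 joined them in knockout tumors. Over all libraries 6 of 10 members were called higher and 0 lower in SJRH30 knockout tumors than in RD knockout tumors (limma, adjusted p below 0.05), where 8.01% of all genes were called higher and 8.94% lower. In SJRH30 control tumors 5 were called higher and 0 lower than in RD control tumors, where 6.23% of all genes were called higher and 12.5% lower. The control groups did not overlap over all libraries for 4 members, all higher in SJRH30, beside 4.19% of all genes. Both comparisons come from 1 fit, share no tumor, and set 1 line against 1 line, so fusion status and other differences between the lines cannot be told apart.

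HSPA1B, on chromosome 6 at chr6:31827735-31830255, encodes an HSP70 that is scarce in resting cells and made on demand under stress. Its normalized counts were 6510, 5000, 4268, 5219 and 4195 in SJRH30 knockout tumors, against 214, 129, 253, 179 and 429 in RD knockout tumors. They were 3440, 7968, 817, 6165 and 4079 in SJRH30 control tumors, against 160, 385, 250, 371 and 326 in RD control tumors. No SJRH30 value overlapped an RD value, and the nearest SJRH30 value, 817, came from the shallow control library. The log2 fold change was 4.48 ± 0.45 (SE) between knockout groups (22.3-fold, adjusted p 1.98e-07) and 3.64 ± 0.45 between control groups (12.4-fold, adjusted p 3.75e-06). Over the deep libraries the HSPA1B differences were 4.72 ± 0.29 and 4.17 ± 0.29.

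HSPA1A, the neighbouring copy at chr6:31815464-31817946, encodes nearly the same protein. It read 1240, 996, 1162, 764 and 774 in SJRH30 knockout tumors, against 57, 44, 55, 30 and 183 in RD knockout tumors. SJRH30 control tumors had 754, 2508, 479, 2051 and 934, against 162, 82, 59, 326 and 88 in RD control tumors. Again every SJRH30 tumor lay above every RD tumor. HSPA1A differed by 3.99 ± 0.51 between knockout groups (15.9-fold, adjusted p 4.23e-06) and by 3.23 ± 0.51 between control groups (9.41-fold, adjusted p 6.83e-05) on the log2 scale. Of the 75-base windows of the HSPA1A transcript, 71.23% also occur in HSPA1B, so the split of reads between the copies is uncertain. Elsewhere 9.313% of HSP90AA1 windows and 7.904% of HSPB1 windows recur in other genes, and the gene AL671762.1 overlaps 36.49% of the exon bases of HSPA1B on the same strand. The sum of HSPA1A and HSPA1B does not depend on how reads were split between the copies, and it averaged 6026 ± 1054 in SJRH30 knockout tumors and 314.6 ± 174 in RD knockout tumors, and 5839 ± 3577 in SJRH30 control tumors and 441.8 ± 157 in RD control tumors (SD, n = 5 each). The summed difference was 20.9-fold between knockout groups and 11.2-fold between control groups (25.3-fold and 15.4-fold, deep libraries).

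HSPH1, at chr13:31134974-31162388, encodes an HSP110 protein that releases ADP from HSP70 and keeps proteins from aggregating. It read 7071, 5678, 4507, 4090 and 5847 in SJRH30 knockout tumors, against 1367, 540, 1352, 651 and 380 in RD knockout tumors. In control tumors it read 4570, 2068, 5251, 2435 and 6520 in SJRH30, against 512, 910, 853, 1315 and 960 in RD. Neither pair of groups overlapped. The log2 fold change was 2.82 ± 0.38 between knockout groups (7.05-fold, adjusted p 1.1e-05) and 2.12 ± 0.38 between control groups (4.35-fold, adjusted p 0.00035).

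DNAJB1, at chr19:14514770-14529770, encodes an HSP40 protein that hands clients to HSP70 and triggers its ATPase. Its counts were 7052, 6025, 7902, 3111 and 5870 in SJRH30 knockout tumors, against 2315, 1005, 2223, 1402 and 1224 in RD knockout tumors. Those in control tumors were 7239, 16429, 1340, 11877 and 8592 in SJRH30, against 1388, 2303, 2630, 3518 and 3394 in RD. The knockout groups did not overlap, and the control groups overlapped only through the shallow SJRH30 control 3 at 1340. DNAJB1 rose by 1.89 ± 0.49 in SJRH30 knockout tumors (adjusted p 0.00922) and by 1.47 ± 0.49 in SJRH30 control tumors (adjusted p 0.0401). The control call was lost in 7 of 10 fits that left out 1 control library (adjusted p 0.0639 to 0.118), while over the deep libraries the control difference was 2.06 ± 0.33 (adjusted p 2.37e-05).

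HSPA8, at chr11:123057489-123063230, encodes HSC70, the HSP70 made in all cells without stress. It was at 18123, 15350, 26325, 14342 and 23731 in SJRH30 knockout tumors, against 12431, 6524, 13261, 6655 and 2621 in RD knockout tumors. Control tumors had 24086, 24648, 28466, 23556 and 30844 in SJRH30, against 8960, 11112, 8696, 21977 and 12007 in RD. The groups did not overlap in either comparison, with RD control 4 at 21977 close below the lowest SJRH30 control. HSPA8 rose by 1.41 ± 0.40 in SJRH30 knockout tumors (2.66-fold, adjusted p 0.0155) and by 1.15 ± 0.40 in SJRH30 control tumors (2.22-fold, adjusted p 0.0458). The HSPA8 control call was lost in 8 of 10 fits that left out 1 control library (adjusted p 0.0624 to 0.111), and it was 1.12 ± 0.31 with adjusted p 0.00523 over the deep libraries.

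HSP90AA1, at chr14:102080738-102139699, encodes the stress-responsive cytosolic HSP90. It read 63329, 39742, 41268, 112097 and 48389 in SJRH30 knockout tumors, against 13383, 7575, 20285, 14888 and 13562 in RD knockout tumors. The control counts were 39199, 18013, 21374, 18370 and 52148 in SJRH30, against 10124, 18905, 12894, 15450 and 22234 in RD. Knockout groups were fully separate and control groups overlapped. HSP90AA1 rose by 2.08 ± 0.41 in SJRH30 knockout tumors (4.23-fold, adjusted p 0.000849). Between control groups its difference of 0.82 ± 0.41 did not pass (adjusted p 0.168, or 0.0607 over the deep libraries). Whether the line difference of HSP90AA1 itself changed with knockout is the interaction given further on, which did not pass.

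**Figure D2:**
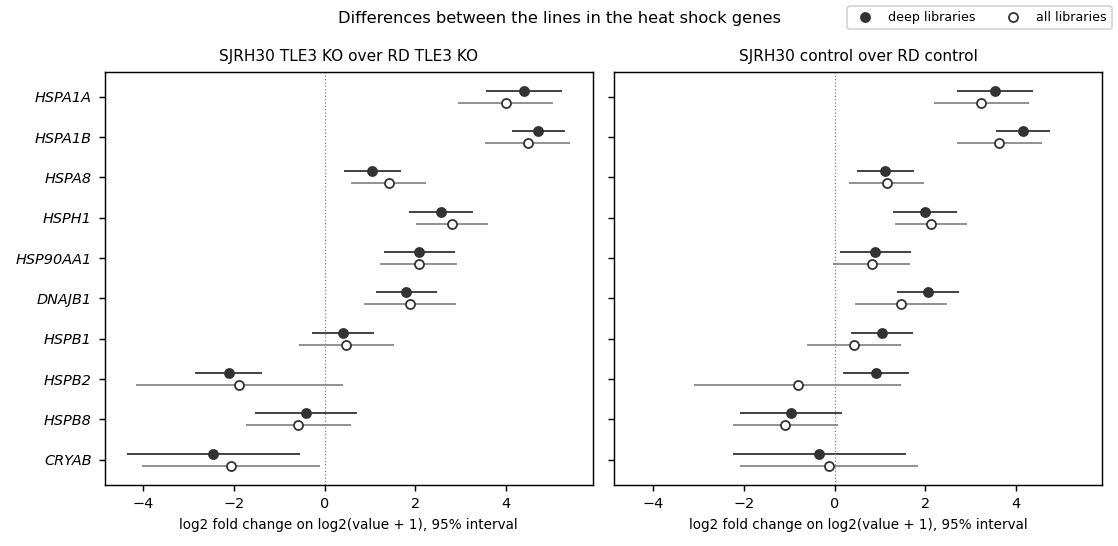
Log2 fold changes of SJRH30 over RD tumors with 95% intervals for the 10 genes, knockout tumors on the left and control tumors on the right, over the deep libraries (filled) and all libraries (open). HSPA1A and HSPA1B lie furthest to the right in both panels (3.99 and 4.48 in knockout tumors, 3.23 and 3.64 in control tumors, all libraries). Among the small heat shock genes HSPB2 lies left of 0 in knockout tumors (-2.12, deep libraries), and HSPB1 and HSPB2 lie right of 0 in control tumors (1.04 and 0.92, deep libraries).

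Among the small heat shock members, HSPB1, HSPB2, HSPB8 and CRYAB, none was called between the lines over all libraries at equal weight. Their calls over the deep libraries were not all in one direction. HSPB1, which encodes HSP27, a chaperone that also binds actin filaments, read 4002 to 7554 in SJRH30 knockout tumors against 2991 to 5822 in RD knockout tumors, and 1220 to 19145 in SJRH30 control tumors against 3863 to 8711 in RD control tumors. Its groups overlapped, and it was called between control groups over the deep libraries (1.04 ± 0.33, adjusted p 0.0151) and not over all (0.43 ± 0.50). HSPB8, a partner of the co-chaperone BAG3, read 36 to 170 in SJRH30 knockout tumors against 60 to 334 in RD knockout tumors, and 95 to 351 in SJRH30 control tumors against 112 to 796 in RD control tumors. HSPB8 passed in neither comparison of the lines, with differences of -0.59 ± 0.56 and -1.09 ± 0.56.

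HSPB2 and CRYAB were both lower in every SJRH30 knockout tumor than in every RD knockout tumor, and 8.97% of all genes were lower without overlap there, while 9.94% were higher without overlap, as 6 members were. HSPB2, a small heat shock protein of muscle and heart, differed by -2.12 ± 0.35 in that comparison over the deep libraries (adjusted p 5.66e-05), but its difference of -1.88 ± 1.10 was not called over all libraries at equal weight, whose shared spread includes a count of 0 in SJRH30 control 3. CRYAB, the alpha-B crystallin of lens and muscle, differed by -2.07 ± 0.95 (adjusted p 0.142) over all libraries and -2.46 ± 0.93 (adjusted p 0.0513) over the deep ones. Between control groups HSPB2 was called higher over the deep libraries (0.92 ± 0.35, adjusted p 0.0413). Over all libraries its direction turned and it was not called (-0.81 ± 1.10, adjusted p 0.636). Of 10 fits that left out 1 control library, only that without SJRH30 control 3, where HSPB2 read 0, turned it back (0.92). CRYAB was not called between control groups (-0.34 ± 0.93, deep libraries). Without the shallow libraries 6 members were called higher and 1 lower between knockout groups, beside 12.6% and 14.2% of all genes. Between control groups 7 were higher and 0 lower, beside 18.1% and 22.4%.

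The median over the 10 members was 1.65 between knockout groups and 0.98 between control groups on the log2 scale, where the medians over all genes tested were -0.08 and -0.45. Rescaling every library to the same total moved those medians of all genes to -0.36 and -0.83 and the share of called genes that were higher to 30.28% and 14.28%, from 47.25% and 33.27% as deposited. HSPA8 was then not called in either comparison (adjusted p 0.112 and 0.255), nor was DNAJB1 between control groups (adjusted p 0.0728), while HSPA1A, HSPA1B and HSPH1 stayed called in both. In the authors' deposited table the linear fold of HSPA1B was 26.108 between knockout groups and 17.915 between control groups, with adjusted p of 1.31e-36 and 2.29e-35. The authors' deposited table differs from the limma calls over the deep libraries for 3 members: CRYAB has a fold of 0.103 between knockout groups (adjusted p 0.00153), HSP90AA1 a fold of 1.995 between control groups (adjusted p 0.0359), and HSPB2 a fold of 1.705 between control groups with an adjusted p of 0.0995.

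Within SJRH30 the lowest counts of CRYAB and HSPB2 were those of knockout tumors, apart from 1 shallow library for HSPB2. They are small heat shock genes that lie head to head on chromosome 11. CRYAB read 229, 289, 292, 149 and 306 in SJRH30 knockout tumors, against 457, 1542, 2364, 4632 and 490 in SJRH30 control tumors. HSPB2 read 163, 126, 153, 98 and 130 in SJRH30 knockout tumors, against 224, 657, 0, 519 and 330 in SJRH30 control tumors. Every CRYAB value of the knockout tumors was below every control value. Every HSPB2 value of the knockout tumors was below every control value apart from the 0 in the shallow SJRH30 control 3. In that library 3 reads are worth 32.69 units, which is below every HSPB2 value of the knockout tumors, and why HSPB2 read 0 was not tested.

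By limma, 0 of 10 members were called over all SJRH30 libraries, where 0.00999% of all genes were called and 1 member, CRYAB, had an unadjusted p below 0.05. Without the shallow SJRH30 control 3 that number was 5 (HSP90AA1 higher, DNAJB1, HSPB1, HSPB2 and CRYAB lower). The share of all genes at an unadjusted p below 0.05 was not counted, so neither number has a background to be read against. Over all libraries CRYAB differed by -2.41 ± 0.59 (adjusted p 0.378), and was the 1 member lower without overlap over all libraries, beside 0.71% of all genes. Over the deep libraries 1 of 10 was called, HSPB2 at -1.59 ± 0.35 (adjusted p 0.0479), beside 0.486% of all genes, and CRYAB stood at -2.19 ± 0.51 (adjusted p 0.0656). Leaving out 1 further library kept the HSPB2 call in 3 of 9 fits (adjusted p 0.0245 to 0.233) and gave a CRYAB call in 3 of 9 (adjusted p 0.0285 to 0.242). Groups that do not overlap in this direction were found for 2 members in the deep libraries, beside 2.81% of all genes. The authors' deposited table gives a fold of 0.309 for HSPB2 (adjusted p 0.00284) and 0.143 for CRYAB (adjusted p 0.0303), from means that give both shallow libraries no weight.

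The other members did not pass in SJRH30. HSP90AA1 averaged 60965 ± 30069 in SJRH30 knockout tumors and 29821 ± 15234 in SJRH30 control tumors (SD, n = 5 each), a difference of 1.06 ± 0.55 (adjusted p 0.628). Its groups overlapped, and the highest value, 112097, was a knockout tumor. Over the deep libraries DNAJB1 differed by -0.88 ± 0.34 (adjusted p 0.176) and HSPB1 by -0.85 ± 0.36 (adjusted p 0.213), with both genes' groups overlapping. HSPA1B, so different between the lines, differed by 0.49 ± 0.54 over all libraries and -0.04 ± 0.30 over the deep ones, a 95% interval of -0.68 to 0.59. The members' median was -0.22, against 0.17 over all genes tested, and without SJRH30 control 3 it was -0.65, against 0.03.

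In RD the knockout tumors had lower HSPA1A and higher HSPB2 counts in most tumors, and neither passed the test. HSPA1A read 57, 44, 55, 30 and 183 in RD knockout tumors, against 162, 82, 59, 326 and 88 in RD control tumors. Without the shallow knockout 5, which gave the 183, all 4 remaining knockout values lay below all control values, as did those of 1.84% of all genes. HSPB2 read 575, 650, 581, 513 and 252 in RD knockout tumors, against 528, 119, 181, 247 and 146 in RD control tumors. Its groups overlapped through RD control 1 at 528.

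Limma called 0 of 10 members in RD over all libraries and 0 over the deep ones, where 0.142% and 0.332% of all genes were called, and 2 and 3 members had an unadjusted p below 0.05. Those shares are for adjusted p, and the share of all genes at the unadjusted threshold was not counted. The deep-library differences were -1.36 ± 0.44 for HSPA1A (adjusted p 0.289) and 1.45 ± 0.35 for HSPB2 (adjusted p 0.118). HSPB2 was called in 1 of 9 fits that left out 1 further library. The authors' deposited table gives a fold of 0.316 with adjusted p 0.0437 for HSPA1A and 2.273 with adjusted p 0.185 for HSPB2. HSPA1A and HSPA1B together differed by -0.85 ± 0.27 (adjusted p 0.282, deep libraries). Sums of 8 immediate early genes moved with the groups: they were 2503 to 6789 in RD knockout tumors and 15247 to 37696 in RD control tumors, and 9 macrophage markers summed to 2013 to 4306 in RD knockout tumors and 4376 to 10740 in RD control tumors. Around the group means of log2 values, HSPA1A had an r of 0.040 with the immediate early sum and 0.556 with the macrophage sum (9 deep RD libraries). The part of either sum in the HSPA1A values was not tested.

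The remaining RD values were spread widely. HSPB8 averaged 163.8 ± 113 in RD knockout tumors and 384.6 ± 285 in RD control tumors (SD, n = 5 each; adjusted p 0.596). CRYAB read 907, 7284, 805, 623 and 350 in RD knockout tumors, against 11658, 252, 223, 7235 and 1235 in RD control tumors, and the direction of its difference of -0.47 ± 1.05 turned when RD control 1 or RD control 4 was left out (0.29 and 0.12). HSPA8, HSPA1B, HSP90AA1, HSPB1 and HSPH1 differed by -0.72 to -0.20 on the log2 scale, and DNAJB1 by -0.70 ± 0.30 (adjusted p 0.561). The median over the members was -0.41, against -0.09 over all genes tested.

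**Figure D3:**
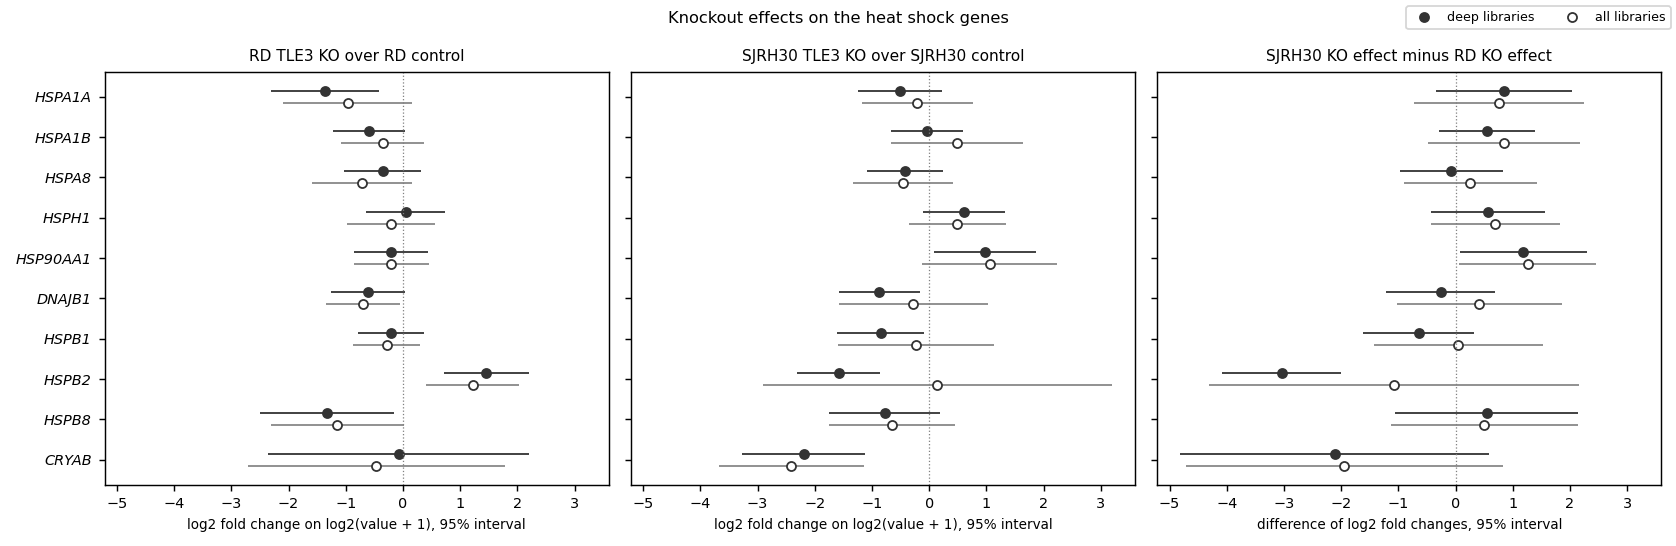
Log2 fold changes of knockout over control tumors with 95% intervals in RD and in SJRH30, and their difference, for the 10 genes over the deep libraries (filled) and all libraries (open). Over the deep libraries HSPB2 lies right of 0 in RD (1.45) and left of 0 in SJRH30 (-1.59), and its interval over all SJRH30 libraries is widened by a count of 0.

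HSPB2 was the one member whose knockout effect differed between the lines by a test of the difference. Over the deep libraries the SJRH30 effect minus the RD effect was -3.04 ± 0.50 (adjusted p 0.00959), and 1 of 10 members was called where 0.197% of all genes were. Counts behind it averaged 134 ± 25.4 in SJRH30 knockout tumors (n = 5) and 432.5 ± 193 in SJRH30 control tumors (n = 4), and 579.8 ± 56.0 in RD knockout tumors (n = 4) and 244.2 ± 166 in RD control tumors (n = 5; SD). The call held in 18 of 18 fits that left out 1 further library, with differences of -3.37 to -2.80 and adjusted p of 0.001 to 0.0404. Over all 20 libraries, with the 0 of SJRH30 control 3 included, the difference was -1.07 ± 1.56 (adjusted p 0.964), and with weights fitted to the 20 libraries it was -2.86 (adjusted p 0.0222). At equal weight 0 of 10 members were called by limma, beside 0.00903% of all genes, and 1 member, HSP90AA1, had an unadjusted p below 0.05 (1.26 ± 0.58, adjusted p 0.823). The share of all genes at that unadjusted threshold was not counted. Without SJRH30 control 3 alone the HSPB2 difference was -2.80 (adjusted p 0.0429). No other member was called, with CRYAB at -2.12 ± 1.31 (adjusted p 0.587) over the deep libraries.

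The place of HSPB2 in the genome limits what its count measures. It lies at chr11:111912242-111914093 on the plus strand in GRCh38 (GENCODE 29), and 626 of its 1335 exon bases (46.89%) are also exon of CRYAB on the minus strand. A readthrough gene, HSPB2-C11orf52, shares 719 of them (53.86%), and 538 bases (40.3%) belong to neither. The library kit is not stated to mark strand, so reads from the shared bases cannot be told apart. CRYAB read at or above HSPB2 in 20 of 20 libraries, and so did the readthrough gene. The neighbours below were chosen after their values were seen.

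The HSPB2-C11orf52 count is not independent of the HSPB2 count, as their exons share bases. It lay close to HSPB2 with C11orf52 added: 578 beside 528 and 44 in RD control 1, and 718 beside 657 and 58 in SJRH30 control 2. Over the deep libraries it differed by -1.52 ± 0.34 in SJRH30 (adjusted p 0.0489) and by 1.19 ± 0.30 in RD (adjusted p 0.137). The difference between those effects was -2.72 ± 0.45 (adjusted p 0.00986). These values give no separate support for HSPB2. C11orf52, further along the same strand, differed by -1.49 ± 0.51 in SJRH30 (adjusted p 0.145) and -0.17 ± 0.37 in RD. DLAT, a mitochondrial enzyme gene beyond it, differed by 0.14 ± 0.30 in SJRH30 and 0.20 ± 0.21 in RD. CRYAB, which contributes overlapping sequence, differed by -0.08 ± 1.07 in RD, with an interval of -2.36 to 2.20. HSPB2 differed by 1.45 in RD, which lies within that interval. The part of CRYAB reads in the HSPB2 counts was not tested.

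**Figure D4:**
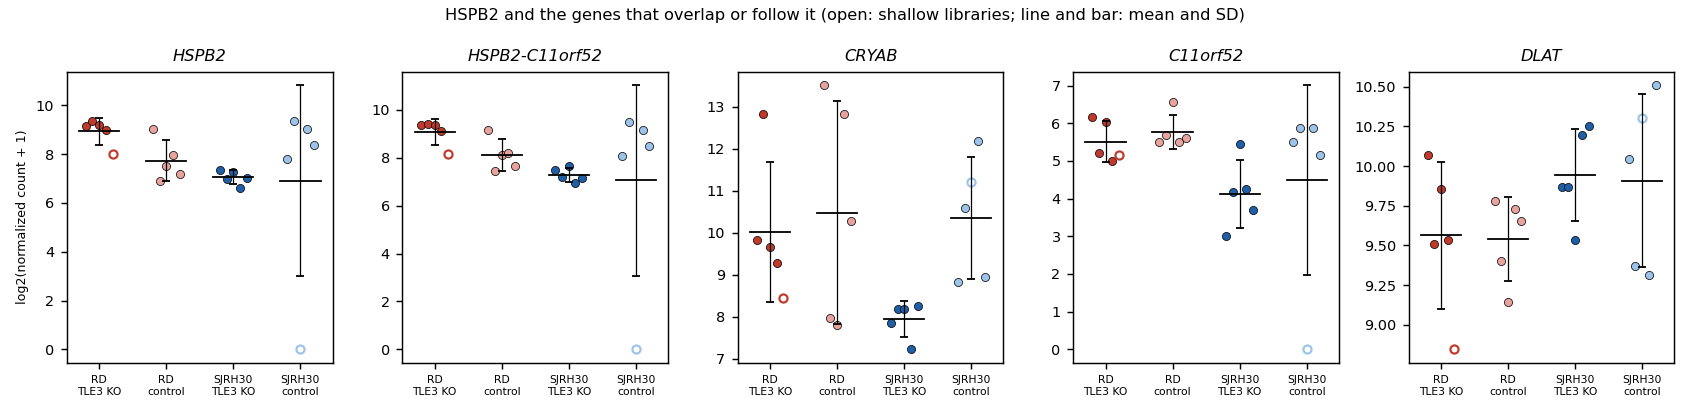
Normalized counts of HSPB2 and 4 genes that overlap or follow it on a log2(value + 1) axis, by tumor, with the mean and SD of each group and shallow libraries as open points. HSPB2 and HSPB2-C11orf52, whose counts are not independent, have the same pattern, high in RD knockout tumors and low in SJRH30 knockout tumors. DLAT stays within 1 log2 unit across the group means.

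CRYAB, HSPB8 and HSPB2 tracked genes of differentiated skeletal muscle from tumor to tumor. Deviations from the group mean of log2(value + 1) were compared over the 18 deep libraries with those of the sum of 8 muscle genes (MYH3, MYH8, TNNT3, TNNC2, ACTA1, CKM, MYL1 and TNNI1). Pearson r was 0.975 for CRYAB, 0.86 for HSPB8 and 0.683 for HSPB2, and 0.977 in RD and 0.971 in SJRH30 for CRYAB (n = 9 each). HSPA1A followed at 0.622, and HSPB1, the remaining small heat shock member, was at 0.043. HSPB2 shares exon bases with CRYAB, so its r is not independent of that of CRYAB. These correlations are descriptions of libraries that share their scaling and depth. CRYAB was highest where muscle RNA was highest: RD control 1 had 11658 with a muscle sum of 261764, and RD knockout 2 had 7284 with 190299. In SJRH30 control 4, CRYAB had 4632 with a muscle sum of 88279.

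All 8 muscle markers were above 0 in every library. Their sum was 1080 to 5510 in SJRH30 knockout tumors and 2814 to 88279 in SJRH30 control tumors, so it moved with the CRYAB and HSPB2 values of that line, and its part in them was not tested. It was 1652 to 190299 in RD knockout tumors and 1254 to 261764 in RD control tumors. In bulk tumors fewer differentiated cells, less RNA per cell and RNA of host tissue cannot be told apart. Erythroid markers (HBA1, HBA2 and HBB) summed to 25347, 13371 and 12976 in RD control 1, RD control 4 and RD knockout 2. These were the RD tumors with the largest muscle sums, and the other RD tumors had erythroid sums of 550 to 7599. In SJRH30 the highest erythroid sum was 23798 in control 1, with a muscle sum of 3289. The part of host tissue was not tested. The r of HSPB2 with the muscle sum was 0.708 within RD and 0.659 within SJRH30 (n = 9 each).

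**Figure D5:**
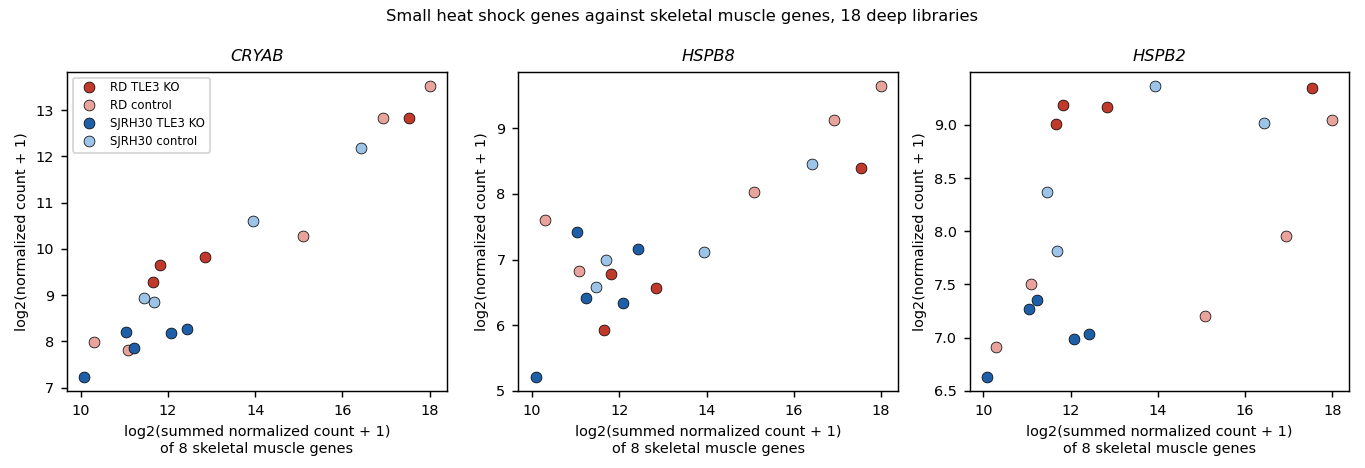
Log2(value + 1) of CRYAB, HSPB8 and HSPB2 against the log2 of the summed counts of 8 skeletal muscle genes in 18 deep libraries, 1 point per tumor, coloured by group. CRYAB lies along a line in both RD and SJRH30 (r 0.975 of deviations), and HSPB2 scatters more widely (0.683). HSPB2 and CRYAB share exon bases, so their panels are not independent.

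The 5 genes outside the list whose deviations were most like those of CRYAB, among 18571 genes with a mean of at least 100, were HSPB6 (r 0.984), MYLPF (0.978), MB (0.974), ANKRD39 (0.972) and PYGM (0.970). HSPB6 is another small heat shock gene of muscle, MYLPF a fast-muscle myosin light chain, MB myoglobin and PYGM muscle glycogen phosphorylase. For HSPB6 the counts were 21 to 46 in SJRH30 knockout tumors against 49 to 1012 in SJRH30 control tumors, and 49 to 933 in RD knockout tumors against 35 to 3173 in RD control tumors. HSPA1B had weaker best matches, CTD-2287O16.5 (0.865), MRPS5 (0.861), PARD6G-AS1 (0.854), RP11-17J14.2 (0.853) and ZNF133 (0.849). Among the members CRYAB and HSPB8 had an r of 0.884, HSPB2 and CRYAB, which share exon bases, 0.748, and HSPA1A and CRYAB 0.719. It was 0.711 for HSPA1B and DNAJB1, 0.698 for HSPA1A and HSPB2, 0.690 for DNAJB1 and HSPB1, and -0.653 for HSP90AA1 and HSPB2 (18 libraries each).

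No chaperone gene of a wider list was called between knockout and control, and between the lines the number called changed with the shallow libraries. The wider list of 55 genes in 8 roles was read from the same fits. By limma 0 of 55 were called in either line's knockout comparison or in the interaction, over all or deep libraries. At an unadjusted p below 0.05 there were 3 of 55 in RD, 1 in SJRH30 and 3 for the interaction over all libraries, and 3 in RD, 19 in SJRH30 and 1 for the interaction over the deep ones. No share of all genes was counted at that threshold, so these numbers cannot be set against a background. SJRH30 knockout tumors had 16 of the 55 higher and 1 lower than RD knockout tumors, where 8.01% of all genes were higher and 8.94% lower, and 24 and 1 over the deep libraries, where those shares were 12.6% and 14.2%. SJRH30 control tumors had 4 of the 55 higher and 1 lower than RD control tumors, where 6.23% of all genes were higher, so over all libraries that count is near the share of all genes. Over the deep libraries the counts between control groups were 24 and 2, beside 18.1% and 22.4% of all genes.

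By role, over the deep libraries, 6 of 9 HSP90 family and co-chaperone genes, 5 of 9 HSP70 family genes and 4 of 9 chaperonin genes were higher in SJRH30 knockout tumors than in RD knockout tumors, beside 12.6% of all genes. So were 4 of 6 genes for exchange factors and partners of HSP70, 2 of 8 other HSP40 genes, 2 of 6 other small heat shock genes, 1 of 4 heat shock factor genes and 0 of 4 other heat-induced genes. HSPA6, the strictly stress-inducible HSP70, averaged 1332 ± 359 in SJRH30 knockout tumors and 54.5 ± 21.0 in RD knockout tumors, and 1492 ± 867 in SJRH30 control tumors and 132.8 ± 80.1 in RD control tumors (SD, deep libraries). Its log2 differences were 4.64 ± 0.43 (adjusted p 6.81e-09) and 3.52 ± 0.43 (adjusted p 5.3e-07). HSPA12A, a divergent HSP70, was the gene lower in both, at -1.85 ± 0.24 and -1.74 ± 0.24. HSF1, the main heat shock factor, was called between the deep control groups (1.30 ± 0.30, adjusted p 0.00138) and not between knockout groups (0.67 ± 0.30, adjusted p 0.104).

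TRAP1, the mitochondrial HSP90, averaged 4204 ± 807 in SJRH30 knockout tumors and 1649 ± 152 in RD knockout tumors (SD over 5 and 4 deep libraries). STIP1, which links HSP70 to HSP90, averaged 3997 ± 1514 in SJRH30 knockout tumors and 1577 ± 568 in RD knockout tumors. HSPA4L, an HSP110 relative, averaged 4106 ± 1047 in SJRH30 knockout tumors and 735 ± 277 in RD knockout tumors. The other genes named by the same rule, HSP90AB1, FKBP4, HSPA4, CCT7 and CCT8, were higher by 1.10 to 1.56 in SJRH30 knockout tumors over the deep libraries and by 0.76 to 2.05 in SJRH30 control tumors.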

How the data were processed

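Poly(A) RNA of 20 xenograft tumors was sequenced. Per the submitters' processing notes, FastQC, fastp 0.20.1, STAR 2.7, featureCounts, edgeR and the genome build GRCh38.p7 were used; settings, strand and any removal of mouse reads are not given in the sources used here, and the part of mouse RNA in these conserved genes was not tested. RNA came from 1 of 2 kits, which the labels do not tie to tumors. The deposited score per gene is a normalized count, which the authors scaled and rounded to whole numbers, so no count model was run. Per the file headers the authors' comparison tables hold a linear ratio (fold change), its log2 value, a p-value and an adjusted p-value; these were copied and not recomputed.

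The 10 members, the wider list and the markers were chosen with earlier results of these data known, as was the setting without the shallow libraries. Groups came from the sample titles. Values were tested as log2(value + 1), which understates changes of low genes, with the trended limma fit (limma 3.58.1, R 4.3.3). The filter kept genes reaching 1 in 5 or more of the libraries fitted; tests were 2-sided, with p-values adjusted by Benjamini-Hochberg over all genes tested and 0.05 as the threshold of a call. Knockout comparisons used the 10 libraries of their line; the line comparisons and the interaction used all 20 with 4 group means, so knockout, line and interaction results share tumors. All 10 members passed the filter in every fit. The error given after a log2 fold change is its standard error, and that after a count is the SD. Wider-list genes named in the text are those called in any comparison, at most 10 by adjusted p; HSPB6, HSPB7, HSF1 and the neighbours of HSPB2 were named for other reasons stated beside them or after their values were seen. Alternatives were other pseudocounts, filters and scalings, library weights, a replicate block, the deep libraries and leaving out each library. Libraries were not copies of each other (at most 0.522% identical values). Coordinates are from GENCODE 29.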

Additional observations from a re-analysis of the deposited data

Results flagged for a closer look

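The effect of the knockout on HSPB2 differed between the lines by a test of the difference: over the deep libraries the SJRH30 effect minus the RD effect was -3.04 on the log2 scale (adjusted p 0.00959). With all 20 libraries at equal weight it was not called (-1.07, adjusted p 0.964), and with library weights it was (-2.86, adjusted p 0.0222).

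For 4 of the 10 members the highest value in 1 group of 5 tumors lay far from the rest. Its gap to the next value was more than 0.71 of the whole range. The chance rate of this rule, about 1 of 20 per member and group, is that for normally distributed values. It was not tested for skewed counts. With 10 members read in each of 4 groups, some such values are expected by chance. HSPA1A read 183 in RD knockout 5, a shallow library, against 30 to 57 in the other RD knockout tumors. HSPA8 read 21977 in RD control 4. HSPB8 read 351 in SJRH30 control 4 and CRYAB read 7284 in RD knockout 2; both of these tumors had the highest summed muscle counts of their groups, 88279 and 190299.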

How the results depend on the processing

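Between knockout groups 6 members were called in each of 10 fits that left out 1 library, and 5 to 8 under the other settings. Between control groups 5 were called as reported, 3 to 6 without 1 library, 3 after rescaling to the same total, 3 with a replicate block and 8 over the deep libraries rescaled by the median of ratios; HSPA8 and DNAJB1 were the calls lost, and the cause was not tested. In SJRH30 the count of 0 became 1 over the deep libraries (0 to 1 without 1 library), in RD 1 with library weights (0 without any 1 library), where HSPB2 stood at 1.77 (adjusted p 0.00691). For the interaction it was 1 over the deep libraries, with library weights, and over the deep libraries rescaled by the median of ratios, and 0 to 1 without 1 library.

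Same-numbered tumors did not deviate together (correlations of -0.63 to 0.26, and 1 of 10 fitted best with its own number), so the numbers were not taken as pairs. Under the replicate block 0 members were called in RD, SJRH30 and the interaction, 3 between control groups and 6 between knockout groups. With the block over the deep libraries, HSPB2 was -2.98 for the interaction (adjusted p 0.0534) and -1.64 in SJRH30 (adjusted p 0.0597).

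Directions turned for values that were not called as reported. In RD, HSPH1 was 0.044 over the deep libraries, 0.14 with library weights, 0.0097 over the deep libraries rescaled and 0.079 with the block (-0.42 to 0.044 without 1 library), and CRYAB was 0.54 with library weights (-1.17 to 0.29). In SJRH30, HSPB2 was -0.46 at a pseudocount of 10, -1.59 over the deep libraries, -1.10 with library weights, -1.67 over the deep libraries rescaled and -1.64 with the block (-1.59 to 0.75). HSPA1B was -0.043 over the deep libraries and -0.13 over those rescaled (-0.043 to 0.78). Without 1 library HSPA1A was -0.51 to 0.085, DNAJB1 -0.88 to 0.029 and HSPB1 -0.85 to 0.14.

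For the interaction, HSPB1 was -0.11 by the median of ratios, and over the deep libraries, with library weights, over the deep libraries rescaled and with the block it was -0.64, -0.20, -0.69 and -0.69 (-0.56 to 0.43 without 1 library). In the same settings HSPA8 was -0.071, -0.15, -0.12 and -0.16 (-0.10 to 0.48), and DNAJB1 -0.26, -0.013, -0.31 and -0.35 (-0.18 to 0.73). Between control groups HSPB1 was -0.0093 at the same total, HSPB2 0.92, 0.80, 0.97 and 0.93 in those 4 settings (-1.42 to 0.92), and CRYAB -0.80 to 0.63 without 1 library.

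At the same total, 5.26% of called genes were higher in RD knockout tumors, beside 18.03% as deposited. In SJRH30 control 3 a member at 0 is at most 32.69 units, so low genes there are not resolved. The deep-library results rest on 4 tumors in RD knockout and SJRH30 control.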

Other observations

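The share of HSPA1A in the HSPA1A and HSPA1B pair was 12.77% to 21.4% in SJRH30 knockout tumors and 17.98% to 36.96% in SJRH30 control tumors, and 14.35% to 29.9% in RD knockout tumors and 17.56% to 50.31% in RD control tumors. The highest shares, 50.31% and 46.77%, were those of RD control 1 and RD control 4, the RD control tumors with the largest muscle sums, and the 3 remaining RD control tumors had 17.56% to 21.26%. HSPA1A deviated with the muscle sum (r 0.622 over 18 deep libraries, 0.614 in RD and 0.673 in SJRH30, n = 9 each). For HSPA1B that r was -0.558 in RD and 0.51 in SJRH30, and -0.22 over both.

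HSPB7, a small heat shock gene of heart and muscle, was higher in SJRH30 tumors over the deep libraries: the difference of SJRH30 over RD was 3.22 ± 0.88 in knockout tumors (adjusted p 0.00743) and 3.58 ± 0.88 in control tumors (adjusted p 0.00223). Over all libraries HSPB7 was called between knockout groups (3.21 ± 1.01, adjusted p 0.0302) and not between control groups (2.71 ± 1.01, adjusted p 0.0634). Its counts were 99 to 629 in SJRH30 knockout tumors and 5 to 157 in RD knockout tumors, and 44 to 1872 in SJRH30 control tumors and 10 to 526 in RD control tumors. CRYAB and HSPB2 were lower in every SJRH30 knockout tumor than in every RD knockout tumor, so the small heat shock genes of muscle were not all on one side of the comparison of lines.

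HSPA8 deviated with the summed macrophage markers (r 0.722 over 18 deep libraries, 0.846 in RD and 0.592 in SJRH30, n = 9 each). In RD so did HSPA1B (0.742), HSPH1 (0.737), DNAJB1 (0.657), HSP90AA1 (0.565) and HSPA1A (0.556). In SJRH30 the r of those genes was -0.274 to 0.413. HSP90AA1 deviated against the muscle sum (r -0.615).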
